A study of Homo sapiens with 6 samples.

Results

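Genes of enzymes that break down cyclic AMP (cAMP) were followed in HEK293 cells that made a fusion of GFP with PKI1-24 or with its control, inPKI1-24. They are not all the genes of such enzymes, and PDE2A, for one, is given with the other phosphodiesterase genes below. The set holds 10 genes out of 30960 in the deposited table, chosen by symbol: PDE3A, PDE3B, PDE4A, PDE4B, PDE4C, PDE4D, PDE7A, PDE8A, PDE8B and PDE10A. HEK293 is a line of human embryonic kidney cells, and every cell of both groups came from it. The PKI group was transfected with a plasmid for GFP fused to PKI1-24. The inPKI group received the plasmid for GFP fused to inPKI1-24, which the labels name as the control. Plasmid was given at 158 ng per square centimetre with Lipofectamine in both groups, and RNA was taken after 48 h. Each group has 3 libraries, named A, B and C. The labels give neither the share of cells that took up a plasmid nor whether the libraries came from separate cultures, so p-values reflect how far these libraries differ from each other and no more, and that spread may be technical. In bulk RNA of this kind, fewer cells that express a gene and less RNA per cell cannot be told apart.

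Phosphodiesterases hydrolyse cyclic nucleotides and so set how long and how far a cAMP signal reaches. The PDE4, PDE7 and PDE8 enzymes act on cAMP alone, PDE3 enzymes also bind cGMP and are inhibited by it, and PDE10A hydrolyses both cAMP and cGMP. PKA, the kinase that cAMP switches on and PKI peptides block, is known to phosphorylate and activate PDE3 enzymes and the long forms of PDE4, which closes a feedback loop. Some PDE4 genes are also known to be transcribed in answer to cAMP through CREB, a transcription factor that binds the cAMP response element.

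The libraries held 17244715 to 23589438 reads recovered from the deposited CPM, the reads of a gene scaled to the depth of its library, and 1 read was worth 0.0333 to 0.0437 CPM. PKIA, the gene that encodes the alpha form of PKI, separated the groups by their labels, with 43.9 ± 1.96 CPM in PKI and 9.68 ± 1.46 CPM in inPKI (SD, n = 3 each). Reads of a plasmid and of the cells' own transcript cannot be told apart there. All 4 HEK293 markers examined reached 1 CPM in at least 1 library, and they summed to 181 to 207 CPM in PKI and 208 to 211 CPM in inPKI. Of these, the neurofilament gene NEFL did not overlap, at 55.6 to 62.9 CPM in PKI and 67.6 to 69.2 CPM in inPKI. The 4 leukocyte markers summed to 0.233 to 0.569 CPM in PKI and 0.109 to 0.331 CPM in inPKI, with CD3E at 0. Of the 4 fibroblast markers COL1A1 alone reached 1 CPM, at 17.0 to 20.3 CPM in PKI and 16.4 to 18.4 CPM in inPKI, and DCN was at 0. The 3 keratinocyte markers summed to 14.9 to 17.4 CPM in PKI and to 18.3, 14.9 and 39.2 CPM in inPKI A, B and C, so that inPKI C stood apart. The part of these markers in the results was not tested. Without inPKI C the log2 change was 0.39 for PDE10A and 0.16 for PDE8A, against 0.35 and 0.16 with it. The adjusted p in limma was then 0.222 for PDE10A and 0.444 for PDE8A, against 0.157 and 0.316 with it.

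RefSeq promoter windows of 300 bases, from 250 before to 50 after an annotated start, were at hand for 8 of the 10 genes, as 33 windows because most of these genes have several starts. They are shown because the cAMP response element, TGACGTCA, is the letter pattern that links cAMP to transcription. Both strands were searched for it and for its shorter form TGACG, which reads CGTCA on the other strand and is contained in the longer motif on both strands. The full motif stood in 1 of the 33 windows, which belongs to PDE4A, against 1.85% of all 35116 promoter windows. The shorter form stood in 3 windows, of PDE4A, PDE4C and PDE4D, against 24.6% of all promoter windows. Capitals mark the shorter form, and where 2 copies overlap they spell the full motif. The coordinates are those of GRCh38.p14. Each window printed is 1 of 2 or more of its gene, and the other windows of these genes held no match. The printed window of PDE4A (chr19:10416523-10416822, plus strand) holds the full motif and that of PDE4D (chr5:59587576-59587875, minus strand) the shorter form alone. Those of PDE10A (chr6:165663192-165663491, minus strand) and PDE8A (chr15:84980217-84980516, plus strand) belong to the genes with the smallest p among the 10.
PDE4A: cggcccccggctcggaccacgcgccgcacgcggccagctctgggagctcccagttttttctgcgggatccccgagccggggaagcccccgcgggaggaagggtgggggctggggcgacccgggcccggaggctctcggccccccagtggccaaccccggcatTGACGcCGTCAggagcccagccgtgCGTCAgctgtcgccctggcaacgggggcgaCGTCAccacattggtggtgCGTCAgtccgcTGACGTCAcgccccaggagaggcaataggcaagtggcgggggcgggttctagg
PDE4D: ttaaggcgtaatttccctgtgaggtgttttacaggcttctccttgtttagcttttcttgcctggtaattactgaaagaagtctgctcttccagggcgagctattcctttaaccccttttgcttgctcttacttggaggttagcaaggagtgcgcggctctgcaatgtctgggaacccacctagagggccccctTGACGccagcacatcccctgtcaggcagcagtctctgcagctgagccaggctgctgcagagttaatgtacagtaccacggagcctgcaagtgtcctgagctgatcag
PDE10A: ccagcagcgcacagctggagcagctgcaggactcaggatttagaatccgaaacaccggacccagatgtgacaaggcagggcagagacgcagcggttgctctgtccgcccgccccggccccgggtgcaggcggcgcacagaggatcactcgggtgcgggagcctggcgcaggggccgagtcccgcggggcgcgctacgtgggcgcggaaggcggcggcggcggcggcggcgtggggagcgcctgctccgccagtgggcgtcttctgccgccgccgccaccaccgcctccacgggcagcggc
PDE8A: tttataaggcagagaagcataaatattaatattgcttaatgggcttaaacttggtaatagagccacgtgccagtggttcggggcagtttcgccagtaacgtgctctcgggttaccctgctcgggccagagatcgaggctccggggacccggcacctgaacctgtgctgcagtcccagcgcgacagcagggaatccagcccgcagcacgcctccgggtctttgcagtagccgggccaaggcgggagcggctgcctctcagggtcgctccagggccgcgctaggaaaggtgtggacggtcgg
The PDE4A window held 7 matches of the shorter form, 2 of them inside the full motif, and the PDE4D window held 1. A match is a run of letters and says nothing of whether a factor binds there, and a window without one says nothing of the factor either. Counts per gene do not show which start a transcript used.

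The first question was which of these genes the cells express, and in which order. Among the 10, PDE7A, PDE8A and PDE3B gave the most transcript per length, and PDE4A came next. Phosphodiesterase genes outside the 10 were not ranked per length. Levels between genes are compared as CPM per kb of the longest transcript annotated in GENCODE 29. PDE7A, a cAMP-specific enzyme gene, had 6.51 ± 0.138 CPM per kb in PKI and 6.28 ± 0.291 CPM per kb in inPKI (SD, n = 3 each). PDE8A, which encodes a cAMP-specific enzyme with very high affinity, had 5.31 ± 0.247 CPM per kb in PKI and 4.74 ± 0.0559 CPM per kb in inPKI. PDE3B, the form of PDE3 best known from fat and liver cells, had 3.42 ± 0.271 CPM per kb in PKI and 3.59 ± 0.187 CPM per kb in inPKI. Together these 3 genes made up 76.9% ± 0.358 of the summed level per kb of the 10 in PKI and 77.3% ± 0.919 in inPKI. PDE4A had 2.36 ± 0.203 CPM per kb in PKI and 2.35 ± 0.162 CPM per kb in inPKI.

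The other 6 genes were lower than these 4 in every library. PDE10A stood at 0.986 ± 0.0557 CPM per kb in PKI and 0.748 ± 0.0434 CPM per kb in inPKI, and PDE4D at 0.599 ± 0.0228 CPM per kb in PKI and 0.565 ± 0.0793 CPM per kb in inPKI. PDE8B, the relative of PDE8A, had 0.308 ± 0.0247 CPM per kb in PKI and 0.290 ± 0.0286 CPM per kb in inPKI. PDE3A had 0.162 ± 0.0220 CPM per kb in PKI and 0.118 ± 0.00802 CPM per kb in inPKI. PDE4B and PDE4C were the lowest in PKI, at 0.0913 ± 0.0249 and 0.0660 ± 0.0174 CPM per kb, and in inPKI they had 0.143 ± 0.0551 and 0.0720 ± 0.0138 CPM per kb. In PKI each gene's libraries lay apart from those of the next gene in the order, except for PDE4B and PDE4C, which overlapped. In inPKI the order differed only in that PDE4B stood above PDE3A, and those 2 overlapped. The order and the shares rest on the length chosen. In PKI the median transcript length gave shares of 45.5% for PDE7A, 17.1% for PDE8A and 10.2% for PDE3B. These were 32.9%, 26.8% and 17.3% with the longest transcript. PDE7A and PDE8B also share exon positions with genes on the opposite strand, a limit given below. With the median transcript length PDE4D ranked 4 of 10 in PKI instead of 6, and by CPM alone PDE8A ranked 1 and PDE7A 2.

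**Figure D1:**
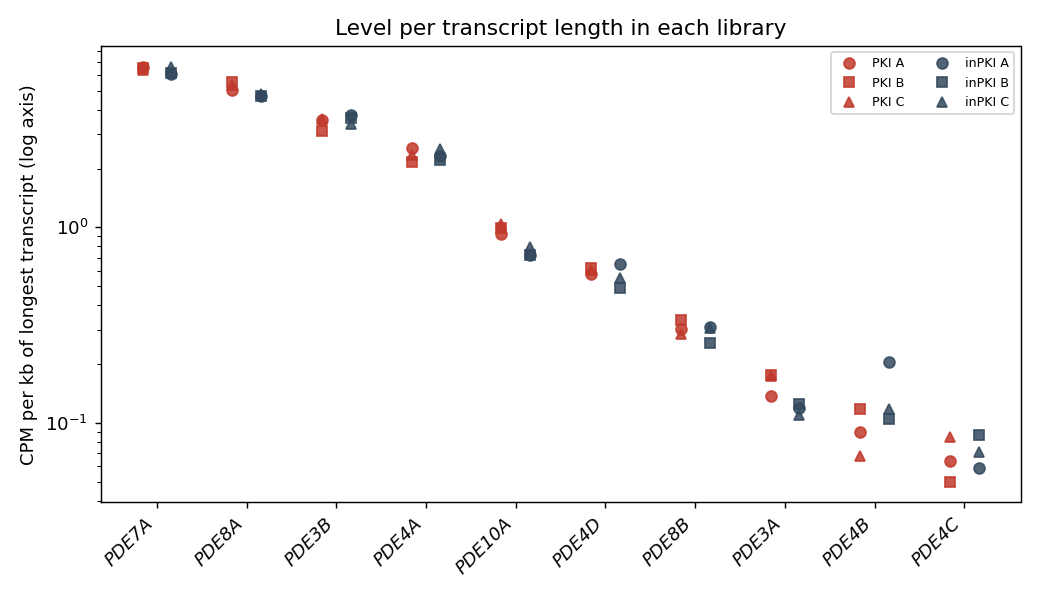
Level of each phosphodiesterase gene in CPM per kb of the longest annotated transcript (log axis), one point per library, with PKI in red left of inPKI in dark blue and the letters A, B and C as circle, square and triangle. The genes run from PDE7A at 6.51 CPM per kb in PKI to PDE4C at 0.0660 CPM per kb in PKI.

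The second question was whether any of the 10 genes differed in RNA level between PKI and inPKI cells. None passed the threshold, an adjusted p of 0.05 in limma over all 14275 genes tested. PDE10A and PDE8A were higher in every PKI library than in any inPKI library, at an unadjusted p below 0.05, and PDE3B, PDE4A, PDE4D, PDE7A and PDE8B overlapped between the groups. PDE4B and PDE4C were too low for the filter, which asked for 1 CPM in at least 3 libraries. PDE3A passed the filter only through the PKI libraries, where it is higher, so that its presence among the 8 genes tested is tied to its difference.

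Of the 8 genes tested, 0 were called higher and 0 lower by limma, where 0.126% of all genes tested were called (18 genes), 0.0981% as higher and 0.028% as lower. That is 14 genes higher and 4 lower, and with the libraries rescaled to an equal sum it was 10 higher and 1 lower, with 0 of the 8 in either. edgeR called 0 of the 8 and 0.0771% of all genes. DESeq2 gave an adjusted p to 3 of the 8 (PDE3B, PDE7A and PDE8A), called 0 of them, and called 2.73% of the 7909 genes to which it gave one. edgeR with no filter, added after seeing the data, called 0 of the 10 and 2.51% of 28891 genes, with an adjusted p of 0.0625 for PDE10A. Before adjustment, 2 of the 8 had a p below 0.05 in limma, both higher in PKI, against 13.7% of all genes tested, of which 7.53% higher and 6.16% lower. That count was 1 without PKI B, inPKI A, inPKI B or inPKI C. limma without a trend gave 3 at that level, among them PDE3A, whose presence is tied to the filter, while edgeR gave 2 and DESeq2 1. Over all genes, in either direction, limma without a trend gave 11.5%, edgeR 15.6% and DESeq2 11.9%. The groups did not overlap in 3 of the 8, all higher, against 19.7% of all genes tested without overlap, 10.9% higher and 8.88% lower. Without PDE3A this was 2 of 7. The median log2 change was 0.067 over the 8 genes, 0.057 without PDE3A and 0.054 over all 10 with no filter, and over all genes tested it was -0.0074. That last median was -0.028 for genes of 2 to 4 kb, 0.013 for 4 to 6 kb and 0.079 over 6 kb. The longest transcripts of the 10 genes ran from 3.67 to 8.65 kb. A log2 change is the PKI mean less the inPKI mean of log2(CPM + 1), a scale that understates the change of low genes.

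**Figure D2:**
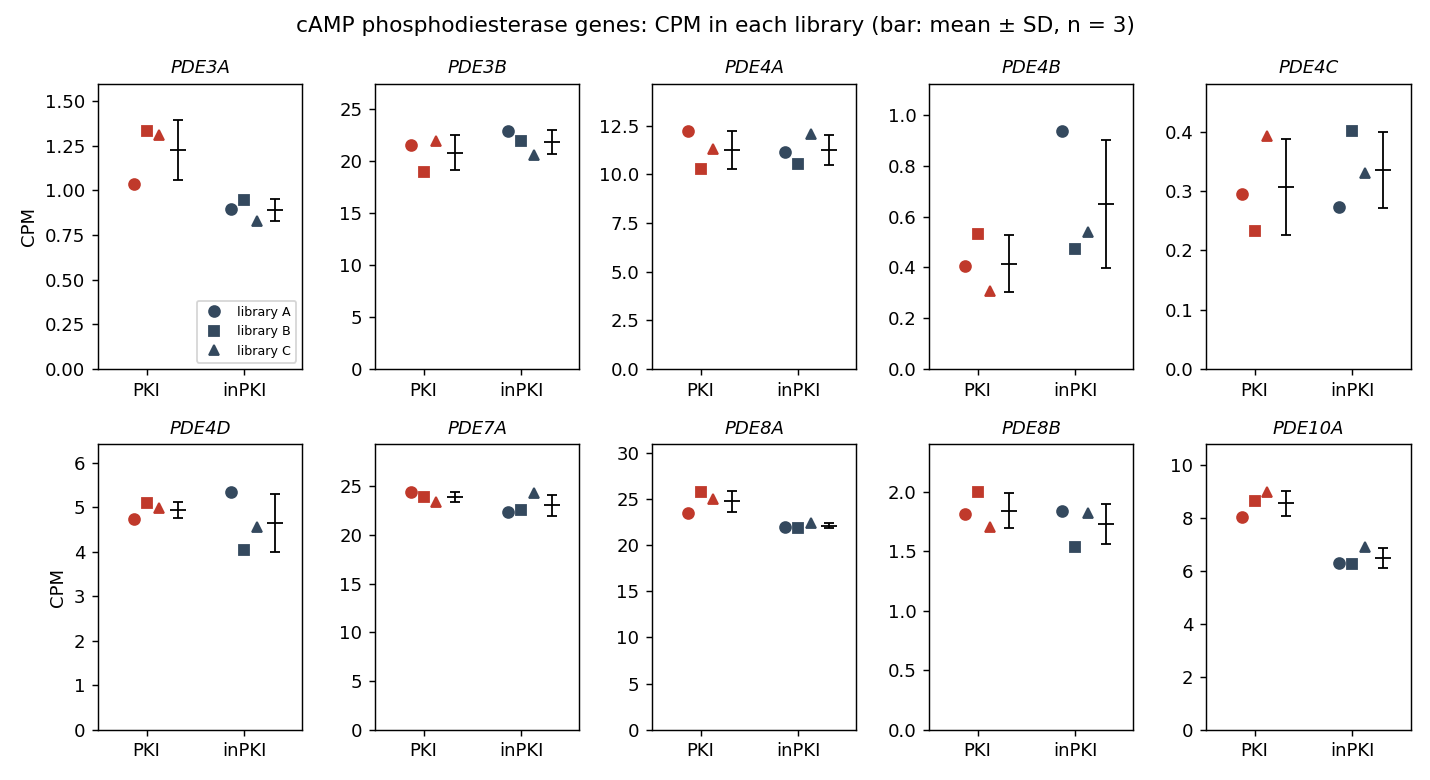
CPM of each of the 10 phosphodiesterase genes in every library, with PKI in red left of inPKI in dark blue, each panel starting at 0. The black bar beside each group is its mean ± SD (n = 3). The groups stand apart in PDE10A, PDE8A and PDE3A and overlap in the other 7 panels.

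PDE10A, the dual-specificity enzyme gene best known from the striatum, had the smallest p of the 10. It measured 8.01, 8.62 and 8.97 CPM in PKI A, B and C, against 6.28, 6.24 and 6.91 CPM in inPKI A, B and C. These are 205 to 259 reads in a PKI library and 161 to 171 in an inPKI library. Every PKI library lay above every inPKI library, and the gap between the groups was wider than the spread within either. That spread was below what counting error alone gives. The SD was 0.482 CPM in PKI against a counting error of 0.570 CPM, and 0.375 CPM in inPKI against 0.503 CPM. The ratio of the mean CPM was 1.32. The log2 change was 0.35 ± 0.094 (SE), with a 95% interval of 0.15 to 0.55, and the adjusted p was 0.157 in limma and 0.140 in edgeR, while DESeq2 gave none. By an exact permutation test p was 0.1, the smallest that 3 libraries against 3 allow. Its log2 change was higher than that of 98.1% of all genes tested. PDE10A (ENSG00000112541.13) lies on chromosome 6, 165327287 to 165988078, on the minus strand in GRCh38. With its longest transcript of 8.65 kb it is also the longest of the 10.

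Log2 changes over all genes ran with transcript length in these libraries. Among the 2657 tested genes with a transcript over 6 kb the median log2 change was 0.079, and 23.0% were higher in PKI at an unadjusted p below 0.05. Among the 2901 tested genes of up to 2 kb the median was -0.098, and 2.69% were higher. PDE10A, PDE4D, PDE3A and PDE3B have longest transcripts over 6 kb, at 8.65, 8.23, 7.58 and 6.08 kb. With the trend of length removed from each library, the log2 change of PDE10A was 0.26 (adjusted p = 0.375 in limma) and that of PDE8A 0.14 (adjusted p = 0.450 in limma). PDE4D, second in length, then had -0.0032. The part of transcript length in the remaining differences was not tested.

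**Figure D3:**
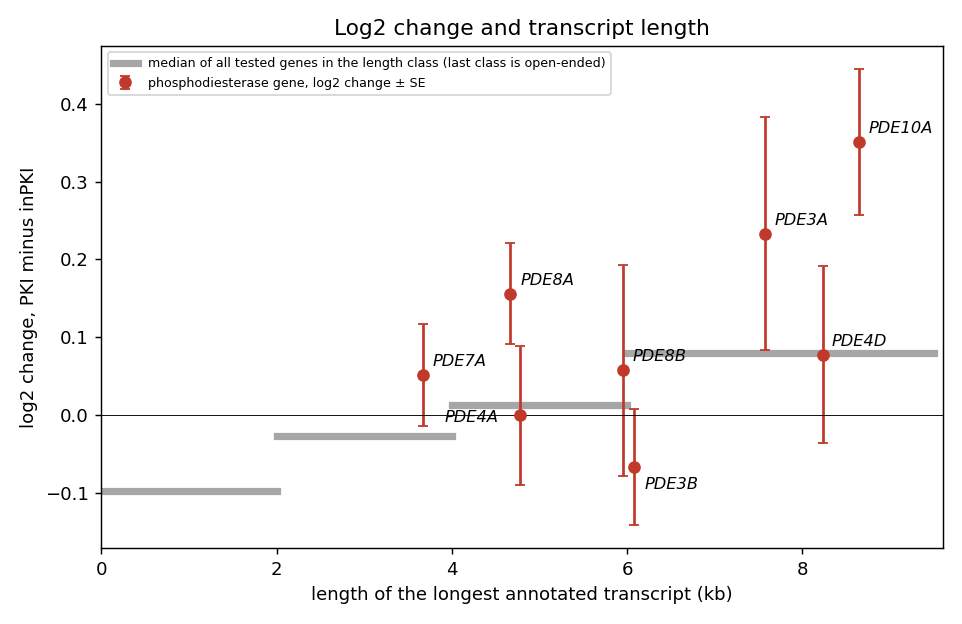
Log2 change, PKI minus inPKI, of the 8 tested phosphodiesterase genes (red points, ± SE) against the length of the longest annotated transcript in kb. Grey lines give the median log2 change of all tested genes in each length class, from -0.098 up to 2 kb to 0.079 over 6 kb, and PDE10A lies above the line of its class.

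PDE8A measured 23.5, 25.8 and 25.0 CPM in PKI A, B and C, against 22.0, 21.9 and 22.4 CPM in inPKI A, B and C. All PKI libraries were higher, but PKI A lay close to the inPKI values. The log2 change was 0.16 ± 0.065 (SE), with a 95% interval of 0.017 to 0.29 and an adjusted p of 0.316 in limma. The inPKI SD of 0.261 CPM was below the 0.929 CPM that counting error alone gives at this depth. The gene (ENSG00000073417.14) lies on chromosome 15, 84980440 to 85139145, plus strand. Its relative PDE8B, known for its role in the adrenal cortex and thyroid, measured 1.81, 2.00 and 1.71 CPM in PKI and 1.83, 1.53 and 1.82 CPM in inPKI. Those values overlapped, and the log2 change was 0.057 ± 0.14 (SE, adjusted p = 0.880 in limma). PDE8B (ENSG00000113231.13, chromosome 5, 77210449 to 77429807) shares exon positions with WDR41 on the opposite strand, which measured 54.8 to 62.4 CPM, and reads of the pair cannot be told apart unless the counting used strand, which is not given in the sources used here.

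PDE7A measured 24.4, 23.9 and 23.4 CPM in PKI and 22.3, 22.6 and 24.3 CPM in inPKI. Only inPKI C reached into the PKI range. The log2 change was 0.051 ± 0.065 (SE), with a 95% interval of -0.088 to 0.19, and the adjusted p was 0.754 in limma. On the linear scale of CPM + 1 the interval runs from 0.941 to 1.14-fold. PDE7A (ENSG00000205268.10, chromosome 8) shares exon positions with MTFR1 on the opposite strand, at 37.7 to 44.9 CPM, so the same limit on strand holds for it.

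Among the PDE4 genes, which encode the cAMP-specific enzymes that rolipram inhibits and that PKA can activate, neither of the 2 tested passed. PDE4A, the most abundant of them, measured 12.2, 10.3 and 11.3 CPM in PKI and 11.2, 10.5 and 12.1 CPM in inPKI. The groups covered nearly the same range, with means of 11.3 CPM in both. The log2 change was -0.000445 ± 0.090 (SE), with a 95% interval of -0.19 to 0.19 (0.876 to 1.14-fold on CPM + 1) and an adjusted p of 0.999 in limma. PDE4A (ENSG00000065989.15, chromosome 19, 10416773 to 10469631, plus strand) is the gene whose printed window holds the full cAMP response element.

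PDE4D, the gene with the most annotated transcripts of the 10 (29), measured 4.73, 5.09 and 4.99 CPM in PKI and 5.34, 4.05 and 4.55 CPM in inPKI. The 3 PKI values lay inside the range of the inPKI values. The log2 change was 0.078 ± 0.11 (SE, 95% interval -0.17 to 0.32, adjusted p = 0.793 in limma). It lies on chromosome 5, 58969038 to 60522120, minus strand (ENSG00000113448.18). The sum over its transcripts cannot show whether short and long forms moved in opposite directions.

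PDE4B, known for its part in inflammatory signalling of immune cells, was near the limit of detection. It had 11, 16 and 7 reads in PKI A, B and C, against 24, 13 and 13 reads in inPKI A, B and C. In CPM these were 0.406, 0.532 and 0.306 in PKI, against 0.936, 0.474 and 0.538 in inPKI. The mean was lower in PKI (ratio 0.639), but PKI B exceeded inPKI B, and inPKI A alone lay far above the others. edgeR with no filter gave a log2 change of -0.62 (unadjusted p = 0.168, adjusted p = 0.681), and limma with no filter gave an adjusted p of 0.639. PDE4C had 8, 7 and 9 reads in PKI and 7, 11 and 8 reads in inPKI, an edgeR log2 change of -0.14 (adjusted p = 0.963). At 24 reads in PKI and 26 in inPKI in all, a moderate difference in PDE4C was not detectable at this depth. PDE4B (ENSG00000184588.17) lies on chromosome 1, 65792514 to 66374579, and PDE4C (ENSG00000105650.21) on chromosome 19, 18208652 to 18248200.

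The PDE3 genes, whose enzymes cGMP inhibits, gave log2 changes whose signs differ, and neither passed. PDE3B measured 21.6, 18.9 and 21.9 CPM in PKI and 22.9, 22.0 and 20.6 CPM in inPKI, and the groups overlapped. Its log2 change was -0.067 ± 0.075 (SE, 95% interval -0.23 to 0.093, adjusted p = 0.720 in limma). It was -0.0029 without PKI B and -0.11 without inPKI C, so its size rests on single libraries. PDE3A, the form best known from heart and platelets, measured 1.03, 1.33 and 1.31 CPM in PKI, against 0.897, 0.948 and 0.827 CPM in inPKI. Those are 28, 40 and 30 reads in PKI A, B and C and 23, 26 and 20 reads in inPKI A, B and C. The groups did not overlap, but the counting error was 0.216 CPM in PKI and 0.186 CPM in inPKI, as large as or larger than the SD of 0.166 CPM in PKI and 0.0608 CPM in inPKI. The ratio of means was 1.38, and the log2 change was 0.23 ± 0.15 (SE, adjusted p = 0.504 in limma; 0.46 in edgeR, adjusted p = 0.410). PDE3A (ENSG00000172572.6) lies on chromosome 12, 20369245 to 20684381, and PDE3B (ENSG00000152270.8) on chromosome 11, 14643723 to 14872044, both on the plus strand.

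Ratios of the reads of relatives within a library were compared for all 8 pairs inside the PDE3, PDE4 and PDE8 families, since a scaling error of a library cancels in them. PDE3A over PDE3B was 0.0479, 0.0704 and 0.0599 in PKI A, B and C, against 0.0392, 0.0432 and 0.0402 in inPKI A, B and C. All PKI ratios were higher, but they rest on 20 to 40 reads of PDE3A, which is above 1 CPM in the PKI libraries alone and whose counting error is as large as its spread. PDE4B over PDE4D was 0.0859, 0.105 and 0.0614 in PKI, against 0.175, 0.117 and 0.118 in inPKI, and all PKI ratios were lower, on 7 to 24 reads of PDE4B. Both pairs gave p = 0.1 by a 2-sided exact permutation test, the smallest the design allows, and 0.4 after adjustment over the 8 pairs. PDE8A over PDE8B was 13.5 ± 0.987 in PKI and 12.9 ± 1.24 in inPKI (SD, n = 3 each), and PDE4A over PDE4D was 2.29 ± 0.284 in PKI and 2.45 ± 0.314 in inPKI. The ranges of these overlapped (p = 0.5 for each by the exact permutation test).

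Summed over the 10 genes, phosphodiesterase transcript came to 98.0, 96.7 and 99.3 CPM in PKI A, B and C and to 93.9, 90.6 and 94.4 CPM in inPKI A, B and C. Each PKI sum was above each inPKI sum, by means of 98.0 ± 1.29 CPM in PKI and 93.0 ± 2.03 CPM in inPKI (SD, n = 3 each). Of all genes tested singly, 10.9% were likewise higher in PKI without overlap. The sums take no account of transcript length, with which log2 changes over all genes ran. PDE8A and PDE10A differed most in mean CPM among the 10, with means of 24.8 and 8.53 CPM in PKI against 22.1 and 6.47 CPM in inPKI. The share of PDE10A in the level per kb was 4.98% ± 0.283 in PKI and 3.96% ± 0.162 in inPKI, and that of PDE3B was 17.3% ± 1.21 in PKI and 19.0% ± 1.24 in inPKI. No test was made of these sums and shares, which were formed over genes chosen with earlier results known.

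Among the 14 phosphodiesterase genes tested, members and others, each profile over the 6 libraries was set against the rest after centring on log2(CPM + 1). The nearest profile to PDE8A was that of PDE3A, with a root-mean-square difference of 0.061, and the nearest to PDE10A was again PDE3A (0.094). PDE3A passed the filter through the PKI libraries, where it is higher, so its likeness to other genes that are higher there is built into the comparison. PDE7A and PDE8B were nearest to each other (0.066), but PDE7A differed from a flat profile by less (0.048), so this nearness shows no shared pattern. These are descriptions over 6 libraries that share their depth and scaling.

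Of the 10 genes 0 passed in the authors' deposited table, where 0.0657% of its 21299 genes with an adjusted p did. Its log2 fold change is positive where inPKI is higher and is given here turned to PKI over inPKI. In the authors' deposited table PDE10A had 0.41 ± 0.18 (SE, unadjusted p = 0.0220), PDE8A 0.18 ± 0.090 (unadjusted p = 0.0520) and PDE4B -0.63 ± 0.60 (unadjusted p = 0.299). The adjusted p in the authors' deposited table was 0.99994 for every one of the 10 genes. That table does not rest on the recovered reads of the 6 libraries alone, since 2069 genes with 0 reads in all 6 have a mean above 0 in it. Whether it holds more libraries is not given in the sources used here.

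The remaining question was how the rest of the cAMP pathway stood beside these genes, by 4 lists. Among 13 other phosphodiesterase genes, 6 were tested, and 0 were higher and 0 lower past the threshold. PDE6D, which encodes a subunit that carries prenylated proteins between membranes, was nearest to it, with 21.3 ± 2.30 CPM in PKI and 25.4 ± 1.80 CPM in inPKI (log2 change -0.25 ± 0.083, SE, adjusted p = 0.223 in limma). PDE2A, a dual enzyme that cGMP stimulates, measured 1.55 ± 0.447 CPM in PKI and 0.958 ± 0.0821 CPM in inPKI (log2 change 0.37 ± 0.16, adjusted p = 0.335 in limma). It passed the filter mainly through the PKI libraries. PDE5A, a cGMP-specific enzyme gene, had 13.6 ± 0.572 CPM in PKI and 12.3 ± 0.918 CPM in inPKI (adjusted p = 0.465 in limma).

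Of 12 genes of cAMP synthesis 8 were tested and 0 passed in either direction. As measured, 6 of the 8 were above 0 and the median log2 change was 0.11, against 47.4% and -0.0074 over all genes tested. These figures take no account of transcript length. With the trend of length removed the 8 log2 changes ran from -0.070 to 0.38. The adenylyl cyclase genes ADCY1, ADCY5 and ADCY6 had the smallest p. ADCY1, a calcium-stimulated cyclase, measured 41.1 ± 0.596 CPM in PKI and 35.4 ± 2.92 CPM in inPKI (log2 change 0.21 ± 0.065, SE, adjusted p = 0.189 in limma), and 0.072 with the trend of length removed. ADCY5 measured 2.30 ± 0.494 CPM in PKI and 1.41 ± 0.109 CPM in inPKI (log2 change 0.44 ± 0.15, adjusted p = 0.221 in limma). ADCY6 measured 32.2, 33.0 and 31.5 CPM in PKI and 29.4, 28.1 and 29.5 CPM in inPKI, without overlap (log2 change 0.15 ± 0.059, adjusted p = 0.298 in limma). With the trend of length removed its log2 change was 0.10, and that of ADCY5 was 0.38.

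Of 14 cAMP effector genes 13 were tested, and PKIA alone passed. After it came RAPGEF3, which encodes the cAMP-activated exchange factor EPAC, at 1.48 ± 0.157 CPM in PKI and 1.02 ± 0.180 CPM in inPKI (adjusted p = 0.401 in limma). PRKAR1B, a PKA regulatory subunit gene, measured 7.79 ± 0.555 CPM in PKI and 8.89 ± 0.530 CPM in inPKI (adjusted p = 0.435 in limma). Of 13 genes whose proteins bind or place phosphodiesterases, 0 passed in limma or in edgeR with the filter. DESeq2 called 2 of the 9 to which it gave an adjusted p, AKAP12 and AKAP13, both higher. Over all genes with an adjusted p it called 2.73%. edgeR with no filter, added after seeing the data, called AKAP9, AKAP12 and AKAP13 (adjusted p = 5.61e-05, 0.000987 and 0.000498), all higher. In the other lists it called ADCY1, higher (adjusted p = 0.0259), PDE6D, lower (adjusted p = 0.0423), and PKIA. That fit called 2.51% of all 28891 genes. With the filter edgeR gave adjusted p = 0.191, 0.0896 and 0.110 for AKAP9, AKAP12 and AKAP13. AKAP13, a large anchoring protein gene, had 52.3 ± 3.32 CPM in PKI and 43.3 ± 0.706 CPM in inPKI, with an adjusted p of 0.109 in limma and 0.0128 in DESeq2. With the trend of length removed the log2 change was 0.12 for AKAP13, 0.14 for AKAP12 and 0.13 for AKAP9, against 0.27, 0.22 and 0.28 as measured. AKAP12 had 134 ± 3.50 CPM in PKI and 115 ± 1.02 CPM in inPKI, and AKAP9 had 72.3 ± 9.28 CPM in PKI and 59.4 ± 5.57 CPM in inPKI.

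**Figure D4:**
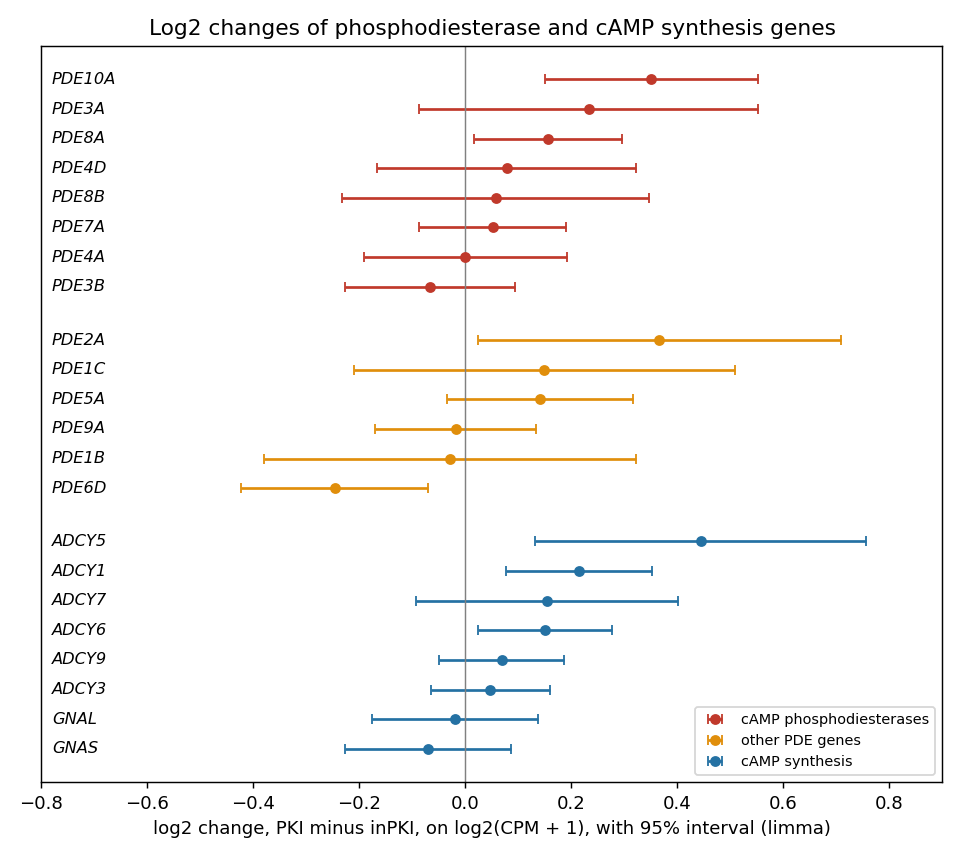
Log2 change (PKI over inPKI, log2 of CPM + 1) of the tested phosphodiesterase and cAMP synthesis genes, each with its 95% interval from limma. Among the 8 tested genes of the set, the intervals of PDE10A (0.15 to 0.55) and PDE8A (0.017 to 0.29) lie above 0. The other 6 include 0, and none of the 8 passed after adjustment over all genes. Among the other PDE genes the interval of PDE2A (0.023 to 0.71) lies above 0 and that of PDE6D (-0.42 to -0.070) below 0.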

How the data were processed

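The libraries were prepared with a TruSeq mRNA kit, per the labels' protocols. Tools that the submitters' processing notes list, without role or order, are STAR 2.5.2b, RSEM 1.3.0, cutadapt 1.14 and DESeq2 1.20.0, with the build hg19. The authors deposited a table of CPM, scaled by TMM according to its name, whose columns sum to 754299 to 785007. Their deposited comparison holds, per the file headers, a mean level (signal), log2 fold changes and their errors, a test statistic and a signed fold (both scores) and p-values.

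All CPM values (100%) were whole multiples of their column's smallest value within 0.01 reads, so whole reads were recovered, which may be rounded estimates. Genes with at least 1 CPM in at least 3 libraries (14275) were fitted as log2(CPM + 1) with limma 3.58.1 (R 4.3.3), 2-sided with a mean-variance trend, and p was adjusted by Benjamini-Hochberg across them, with 0.05 as the threshold. edgeR 4.0.16 and DESeq2 1.42.0 on recovered reads, other pseudocounts, filters and scalings, a length correction (lowess, span 0.3) and leaving out each library were alternatives. Scripts were tested on simulated data. Counting error is the square root of the reads and covers counting alone.

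Lengths and positions are from GENCODE 29 (GRCh38), matched by identifier for 30795 of 30960 genes, and promoters from RefSeq (GRCh38.p14). The alignment's build differs. The 10 genes, the lists and the alternatives were chosen with earlier results of these data known. All 10 genes are named, and from each list the 3 with the smallest p and any past the threshold. Figures were drawn with matplotlib 3.10.9.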

Additional observations from a re-analysis of the deposited data

How the results depend on the processing

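Of the genes of the set that each alternative could test, 0 passed the threshold in any of the 18 alternatives or in edgeR with no filter, which was chosen after seeing the data. The 18 do not cover all 10 genes, since PDE4B and PDE4C entered only the fits with no filter and DESeq2 gave no adjusted p for PDE3A, PDE4A, PDE4D, PDE8B and PDE10A. Of 146 values of single genes 137 kept their direction and 9 turned it. The limma fits without a trend, with the replicate block and with other filters leave each log2 change as it is. Their values could not turn, so the 137 overstate how far direction was put to a test. All the turned values were close to 0. PDE4A, -0.000445 as reported, was 0.0084 in edgeR, 0.0052 in edgeR with no filter, 0.00075 with median-ratio rescaling, 0.0084 with an equal sum, 0.022 with sample weights and -0.056 to 0.058 over the fits that left out 1 library. PDE4D, 0.078 as reported, was -0.0032 with the length trend removed and -0.00015 to 0.16 over those fits. PDE10A ranged from 0.24 to 0.41, with adjusted p of 0.0625 to 0.525, PDE8A from 0.13 to 0.19, with adjusted p of 0.230 to 0.640, and PDE3B from -0.11 to -0.0029, the last without PKI B. The count at an unadjusted p below 0.05 was 2 in limma, 3 in limma without a trend (PDE3A among them) and 1 in DESeq2. With 1 library left out it was 1 to 2, being 1 without PKI B, inPKI A, inPKI B or inPKI C. The cause was not tested.

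Over all genes 18 passed, against 216 in DESeq2, 11 in edgeR, 725 in edgeR with no filter, 10 with the length trend removed, 4 without a trend, 4 with no filter, 11 with an equal sum, 144 with sample weights, 124 with the replicate block and 9 to 114 with 1 library left out (9 without inPKI B, 11 without inPKI A, 37 without PKI A, 46 without PKI C and 114 without PKI B). Of the other cAMP pathway genes 1 passed, against 3 in DESeq2, 6 in edgeR with no filter, 2 with the replicate block, 3 with sample weights and 1 to 2 with 1 library left out, being 2 without PKI B or PKI C. The letters were not taken as pairs. Same-lettered libraries deviated together with correlations of 0.017, 0.014 and 0.028 for A, B and C. Counting error is part of each deviation, so these values cannot show whether the letters are pairs. The block brought none of the 10 genes past the threshold, with an adjusted p of 0.0912 for PDE10A in limma. Depth limits PDE4B, PDE4C and PDE3A, at 7 to 40 reads per library.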
